A study of Mus musculus with 6 samples.

Results

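The genes of the mucus layer in the colon of HDAC1/2 deficient mice were compared with those of control mice. They comprised 10 genes, namely the mucins Muc1, Muc2, Muc4, Muc13 and Muc20 and the mucus-associated genes Fcgbp, Tff3, Agr2, Spdef and Zg16, out of 18193 genes named on the arrays. Every probe set whose only gene symbol was one of the 10 was kept, which gave 17 of the 45037 probe sets tested. The study asked what the loss of both deacetylases in intestinal epithelial cells (IEC) does to the intestine. HDAC1/2 deficient mice carried floxed alleles of Hdac1 and Hdac2 and a villin-Cre transgene, so the deletion was driven in epithelial cells of the intestine by the villin promoter. Controls are labelled wild type, without further detail of their alleles. Neither group was treated, per the labels. By the study's account the mice were 4 months old and the deficient epithelium kept patches of HDAC2 protein. Total colon RNA of 3 mice per group was hybridized to Affymetrix mouse genome arrays, with a numbered mouse named for each array in the labels, which give the epithelium of the colon as source.

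Mucus is the gel that keeps luminal bacteria away from the colonic surface. Goblet cells secrete it, and its scaffold in the colon is the gel-forming mucin Muc2, a heavily O-glycosylated protein that polymerizes into sheets. Fcgbp, Zg16 and Tff3 are secreted with it, Agr2 is a disulfide isomerase of the endoplasmic reticulum needed to fold Muc2, and Spdef is a transcription factor of goblet cell maturation. Muc1, Muc4, Muc13 and Muc20 are transmembrane mucins that stand on the apical cell surface as part of the glycocalyx.

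Values are log2 signals per probe set, background-corrected and normalized by the authors with RMA, and ran from 2.79 to 14.85. Arrays of one group correlated at 0.998 or above across probe sets. Hdac1 was at 10.56 ± 0.04 on control and 9.27 ± 0.06 on deficient arrays (SD, n = 3 each), whereas Hdac2 was at 10.94 ± 0.02 and 10.98 ± 0.05. Of 10 epithelial markers 4 rose, 2 fell and 4 did not pass (limma), from Krt20 at 0.67 to Cdx1 at -0.22. The log2 of their summed linear signals, in which bright genes weigh most, lay between 17.21 and 17.22 on control arrays. On deficient arrays it lay between 17.28 and 17.30. Sex-linked genes went against 1 mouse per array in the deficient group. The Y-linked gene Eif2s3y read 8.32, 8.49 and 8.22 on the 3 deficient arrays, against a control mean of 4.09 ± 0.23, while the X-linked Xist read 12.01, 11.99 and 12.06 on the same arrays, against 12.85 ± 0.03. Each deficient array thus carried both. The part of sex in the results was not tested. Markers of other tissues moved with the group, and their part in the results was likewise not tested. All 7 measured pancreatic acinar genes and 6 of 7 leukocyte genes rose (limma), and all 7 squamous epithelium genes and all 6 smooth muscle genes fell. Beside these counts and those of the epithelial markers, 21.9% of all genes rose and 28.4% fell. In such bulk RNA, fewer cells of a type and less RNA per cell cannot be told apart.

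The mucus genes moved apart in HDAC1/2 deficient colon. The transmembrane mucins Muc4 and Muc1 and the goblet cell factor Spdef were higher, the Muc2-binding protein gene Fcgbp, the trefoil peptide gene Tff3 and the transmembrane mucin Muc13 were lower, and Muc2, Muc20, Agr2 and Zg16 did not pass the test. With each gene read by its brightest probe set, 3 of 10 genes were higher and 3 lower, where 21.9% of all 18193 genes were higher and 28.4% lower. Of the 17 probe sets 4 were higher and 4 lower, against 18.8% and 21.0% of all probe sets. These shares are near those of the whole array. The median log2 fold change of the 10 genes was -0.03, and that of all genes -0.02. Of the members, 2 probe sets of Muc4 passed with a change of more than 2-fold, as 2.79% of all probe sets did in either direction. In 5 of the 17 probe sets all deficient arrays lay above all control arrays and in 7 below, while 50.0% of all probe sets had groups without overlap. That share was larger among the brightest probe sets, as given below. A probe set was called at a limma adjusted p under 0.05, with p adjusted by Benjamini-Hochberg over all 45037 probe sets. Differences are deficient minus control on the log2 scale, each with its standard error (SE).

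**Figure D1:**
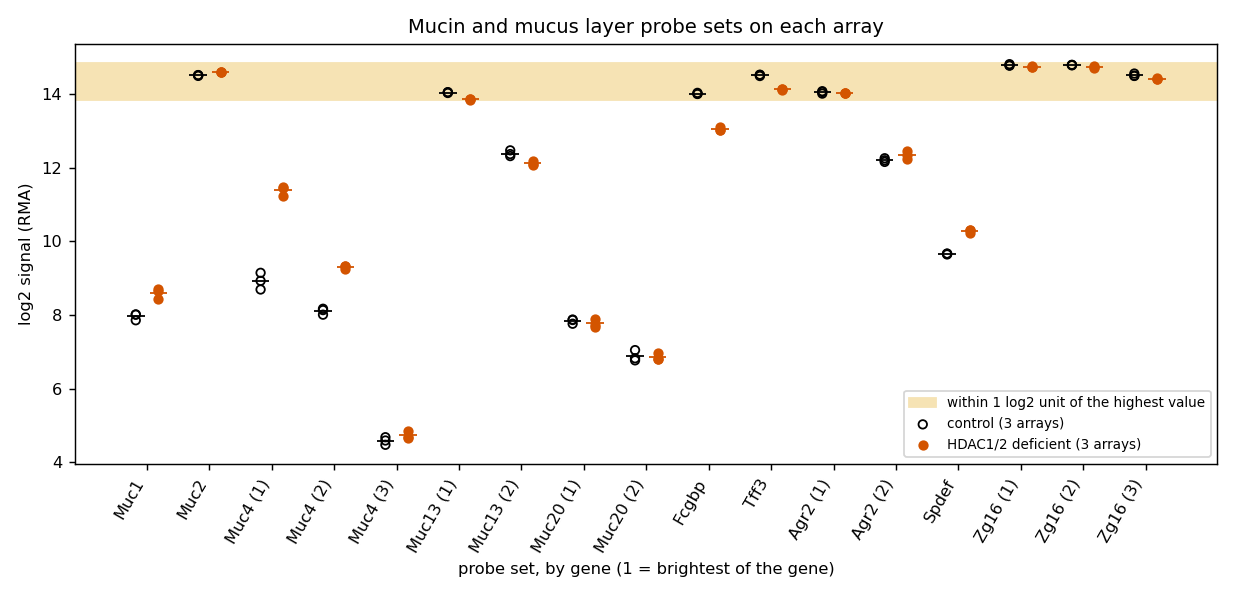
Log2 signal (vertical axis) of the 17 probe sets of the 10 mucus layer genes on each of 3 control (open circles) and 3 HDAC1/2 deficient arrays (orange), with the group means as lines and the zone within 1 log2 unit of the highest value shaded. Muc4 (1), Muc4 (2), Muc1 and Spdef lie higher on the deficient arrays, Fcgbp and Tff3 lower, and 8 probe sets reach the shaded zone.

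Regions upstream of 4 genes are shown because these genes gave the largest rises and the largest fall among the members. They are the 250 bases before the RefSeq gene start in build GRCm38.p6, read 5′ to 3′ on the strand of the gene, in lower case with every match to a searched motif in capitals. The regions lie at chr16:32735636-32735885 (plus strand) for Muc4, chr3:89228806-89229055 (plus) for Muc1, chr17:27728952-27729201 (minus) for Spdef and chr7:28070986-28071235 (plus) for Fcgbp.
Muc4: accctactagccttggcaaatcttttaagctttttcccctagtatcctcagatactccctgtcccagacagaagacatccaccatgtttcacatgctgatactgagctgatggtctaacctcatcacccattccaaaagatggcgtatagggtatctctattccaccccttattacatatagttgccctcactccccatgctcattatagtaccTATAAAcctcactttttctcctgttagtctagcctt
Muc1: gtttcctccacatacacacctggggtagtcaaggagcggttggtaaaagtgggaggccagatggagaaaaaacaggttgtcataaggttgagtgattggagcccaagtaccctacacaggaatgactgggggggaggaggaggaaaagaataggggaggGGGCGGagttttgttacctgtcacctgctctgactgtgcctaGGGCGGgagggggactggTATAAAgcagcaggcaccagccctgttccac
Spdef: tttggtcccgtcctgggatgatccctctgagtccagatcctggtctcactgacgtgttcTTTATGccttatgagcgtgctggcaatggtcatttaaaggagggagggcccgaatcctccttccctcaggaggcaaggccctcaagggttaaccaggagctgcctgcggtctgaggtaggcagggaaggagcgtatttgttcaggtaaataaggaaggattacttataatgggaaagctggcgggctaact
Fcgbp: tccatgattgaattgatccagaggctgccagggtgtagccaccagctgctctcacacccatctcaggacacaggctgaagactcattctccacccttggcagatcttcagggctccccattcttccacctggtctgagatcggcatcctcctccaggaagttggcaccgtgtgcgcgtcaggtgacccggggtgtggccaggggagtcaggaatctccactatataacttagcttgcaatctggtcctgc

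Exact matches on either strand were sought for 6 motifs: TATAAA, the core promoter box; GGGCGG, the GC box bound by Sp factors; TTTATG, a motif of Cdx factors; TTCNNNGAA, one of STAT factors; AGATAA, one of GATA factors; and GTAAACA, one of Fox factors. They occur in 12.4%, 32.7%, 10.8%, 7.02%, 9.99% and 3.17% of all 32851 upstream windows of this length. Muc4 and Muc1 each held TATAAA, beginning 36 and 31 bases before the start, and Muc1 held GGGCGG at 2 places. Spdef held TTTATG once, 191 bases before the start, and Fcgbp held none of the 6. Muc2, whose window is not printed, held TATAAA once, AGATAA at 2 places and the GC box on the other strand. Windows were found for 8 of the 10 members, with 9 windows in all since Muc13 has 2 starts, and Tff3 and Zg16 had no entry. A match describes the letters only. 

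Among the transmembrane mucins, Muc4 rose the most. Muc4 forms a large extended barrier with growth factor-like domains at the cell surface. Its brightest probe set (1438555_x_at) gave log2 signals of 9.15, 8.69 and 8.93 on the control arrays and 11.45, 11.24 and 11.49 on the deficient arrays, so that the lowest deficient array stood above the highest control array. The difference was 2.47 (SE 0.12, limma adjusted p = 3.80e-06), a rise of 5.54-fold (95% interval 4.58 to 6.71). This probe set ends in _x_at, a suffix that marks probes shared with other sequences. The second probe set (1427398_at), without such a suffix, read 8.13, 8.01 and 8.17 in control and 9.26, 9.34 and 9.32 in deficient colon, again without overlap, and rose by 1.20 (SE 0.06, limma adjusted p = 3.23e-06), or 2.30-fold. With limma's treat, which tests whether a change exceeds 2-fold, 1438555_x_at passed and 1427398_at did not. The third (1432119_at) read 4.47, 4.59 and 4.68 against 4.86, 4.67 and 4.68. It lay at the 14.1 percentile of mean signal, its groups overlapped, and it did not pass (difference 0.15, SE 0.07, limma adjusted p = 0.140).

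Muc1, a cell surface mucin with a signaling tail, was measured by 1 probe set (1449199_at). It read 8.02, 8.01 and 7.86 on the control arrays and 8.65, 8.71 and 8.44 on the deficient arrays, with no overlap. The rise was 0.64 (SE 0.08, limma adjusted p = 4.82e-04), or 1.56-fold (95% interval 1.37 to 1.78). For acinar genes of the pancreas, a tissue whose ducts also make Muc1, the log2 of the summed linear signals was 9.38 on every control array. It lay between 14.88 and 14.91 on the deficient arrays. Of the duct markers themselves, 0 of the 3 measured passed with limma (0 also at an unadjusted p under 0.05). Krt7 was at 11.41 ± 0.04 on control arrays and 11.38 ± 0.06 on deficient ones. Cftr was at 11.23 ± 0.06 on control and 11.34 ± 0.03 on deficient arrays, and the dim Onecut1 at 6.31 ± 0.07 and 6.15 ± 0.17. On the control arrays Krt7 and Cftr stood well above Muc1 (7.96). The part of pancreatic RNA in the rise of Muc1 was not tested.

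Muc13, the transmembrane mucin of the enterocyte and goblet cell brush border, fell slightly in both of its probe sets. The brighter (1419387_s_at) read 14.05, 14.04 and 14.06 in control and 13.86, 13.85 and 13.87 in deficient colon, so that the spread within a group was a small part of the gap. It fell by 0.19 (SE 0.04, limma adjusted p = 0.00542), 1.14-fold. The other (1419386_at) read 12.32, 12.38 and 12.48 against 12.11, 12.08 and 12.19, and fell by 0.26 (SE 0.06, limma adjusted p = 0.00706), 1.20-fold.

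Muc20, a smaller membrane mucin next to Muc4 on the chromosome, did not pass in either probe set. 1451786_at read 7.76, 7.88 and 7.86 in control and 7.69, 7.89 and 7.74 in deficient colon (difference -0.06, 95% interval -0.21 to 0.09, limma adjusted p = 0.501). 1442960_at read 6.83, 7.05 and 6.77 against 6.80, 6.82 and 6.98 (difference -0.01, 95% interval -0.21 to 0.18, limma adjusted p = 0.913). The groups overlapped in both, and the intervals hold changes of up to about 0.2 either way.

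Of the secreted gel proteins, Fcgbp fell the most. Fcgbp is a protein of repeated von Willebrand factor domains that is found bound to Muc2 in mucus. Its probe set (1426872_at) read 14.04, 14.01 and 14.02 on the control arrays and 13.04, 13.12 and 13.02 on the deficient arrays. All deficient arrays lay far below the control arrays, and the fall was 0.96 (the difference being -0.96, SE 0.04, limma adjusted p = 3.35e-06), 1.95-fold (95% interval of the ratio deficient over control 0.478 to 0.552).

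Tff3, the trefoil peptide of goblet cells that acts in mucosal repair, read 14.53, 14.50 and 14.52 in control and 14.15, 14.13 and 14.13 in deficient colon (1417370_at). The groups were apart, and Tff3 fell by 0.38 (SE 0.04, limma adjusted p = 1.50e-04), 1.30-fold. Muc2 itself read 14.52, 14.52 and 14.50 in control and 14.60, 14.60 and 14.60 in deficient colon (1428435_at). Each deficient array was higher than each control array, yet the difference of 0.08 (SE 0.04, 95% interval -0.0035 to 0.17) did not pass (limma adjusted p = 0.119). The call turned with the setting: the limma adjusted p ranged from 1.37e-04 with trend and robust settings to 0.248 without deficient replicate 1. In every setting run the difference stayed between 0.0773 and 0.0893.

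Zg16 is a lectin-like protein that aggregates Gram-positive bacteria in the mucus. Its 3 probe sets lay at the upper end of the scale. The brightest (1428359_s_at) read 14.79, 14.78 and 14.82 in control and 14.77, 14.75 and 14.75 in deficient colon, the second (1434137_x_at) 14.79, 14.80 and 14.80 against 14.77, 14.72 and 14.75, and the third (1428358_at) 14.50, 14.51 and 14.56 against 14.41, 14.42 and 14.44. In all 3 the deficient arrays were below the control arrays, by -0.04, -0.05 and -0.10, but none passed (limma adjusted p = 0.463, 0.381 and 0.0899). The 3 probe sets read the same transcript and are not separate evidence. With the trend and robust settings all 3 passed (limma adjusted p = 0.0439, 0.0195 and 2.59e-04).

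Of the genes for goblet cell maturation and mucin folding, Spdef rose and Agr2 did not pass. Spdef, measured by 1 probe set (1450220_a_at, a suffix for transcripts of 1 gene), read 9.67, 9.65 and 9.67 in control and 10.32, 10.32 and 10.23 in deficient colon. No array overlapped, and Spdef rose by 0.63 (SE 0.04, limma adjusted p = 2.45e-05), 1.55-fold (95% interval 1.44 to 1.66). Agr2 read 14.06, 14.08 and 14.02 against 14.03, 14.03 and 14.04 (1419268_at), with overlapping groups (difference -0.02, 95% interval -0.11 to 0.07, limma adjusted p = 0.744). Its dimmer probe set (1455802_x_at) read 12.16, 12.26 and 12.21 against 12.35, 12.25 and 12.45 (difference 0.14, 95% interval 0.00088 to 0.28, limma adjusted p = 0.105). The 2 probe sets of Agr2 thus differed in sign, and neither passed.

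**Figure D2:**
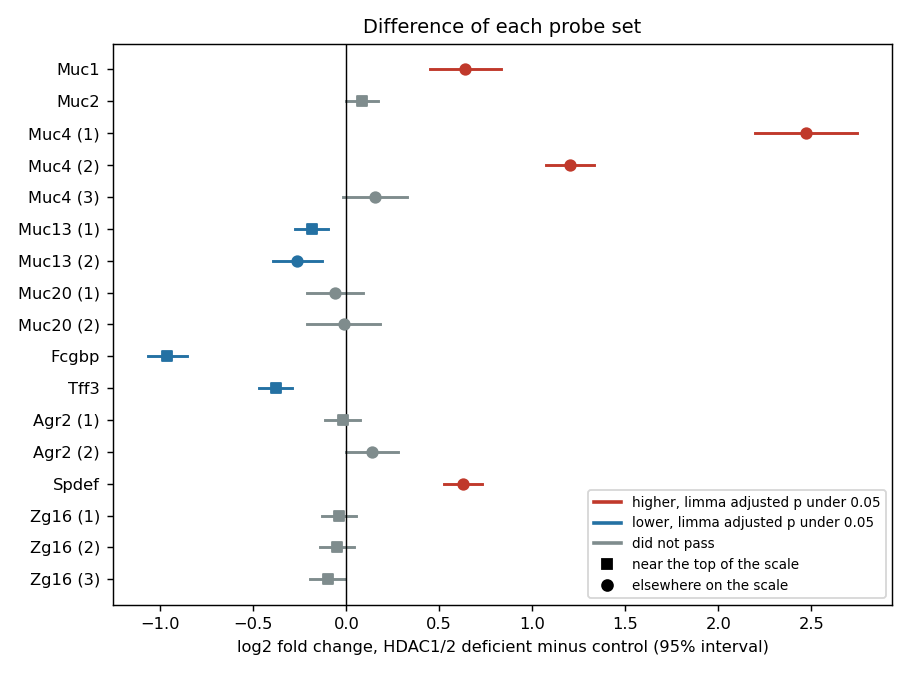
Log2 fold change of each probe set (horizontal axis, HDAC1/2 deficient minus control, 3 arrays per group) with its 95% interval from limma, coloured by the call and squared where the signal is near the top of the scale. Muc4 (1) stands at 2.47 and Fcgbp at -0.96, while the intervals of Muc2, Muc4 (3), Muc20, Agr2 (1) and 2 of the 3 Zg16 probe sets cross 0.

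Much of the mucus layer was read near the top of the scale. In 8 of the 17 probe sets the mean of a group was within 1 log2 unit of the highest value of the table, that is above 13.85, and these were the probe sets of Muc2, Fcgbp and Tff3, the 3 of Zg16 and the brighter ones of Agr2 and Muc13. Of the 8, 0 rose and 3 fell (limma), and of the other 9, 4 rose and 1 fell. Over all probe sets, 287 lay in this zone, of which 55 rose and 76 fell, while 8420 rose and 9382 fell of the 44750 elsewhere. Of the 287, 79 had all deficient arrays above all control arrays and 168 below, against 10621 and 11634 elsewhere. Among the members these counts were 1 and 6 of the 8 in the zone, and 4 and 1 of the other 9. The difference between the zones was not tested for the members. In the zone the median absolute log2 fold change of all probe sets was 0.11, against 0.13 elsewhere on the scale. Its 95th percentile was 0.96 in the zone and 0.78 elsewhere. The share called with a change of more than 2-fold was 4.88% in the zone and 2.77% elsewhere. A probe set entered the zone by the higher of its group means, so one with a large change could enter through 1 group alone. The sizes of change in the zone and elsewhere therefore cannot show whether differences were narrowed there. Where a gene had a probe set in the zone and a dimmer one above the 40th percentile of signal, which held for 62 genes, the dimmer one differed more in 44, with a median absolute log2 fold change of 0.20 against 0.14. Muc13 (-0.19 and -0.26) and Clca1 (-0.38 and -1.68) were among them. How far the differences of Muc2, Tff3, Fcgbp and Zg16 were narrowed by their place on the scale was not tested.

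**Figure D3:**
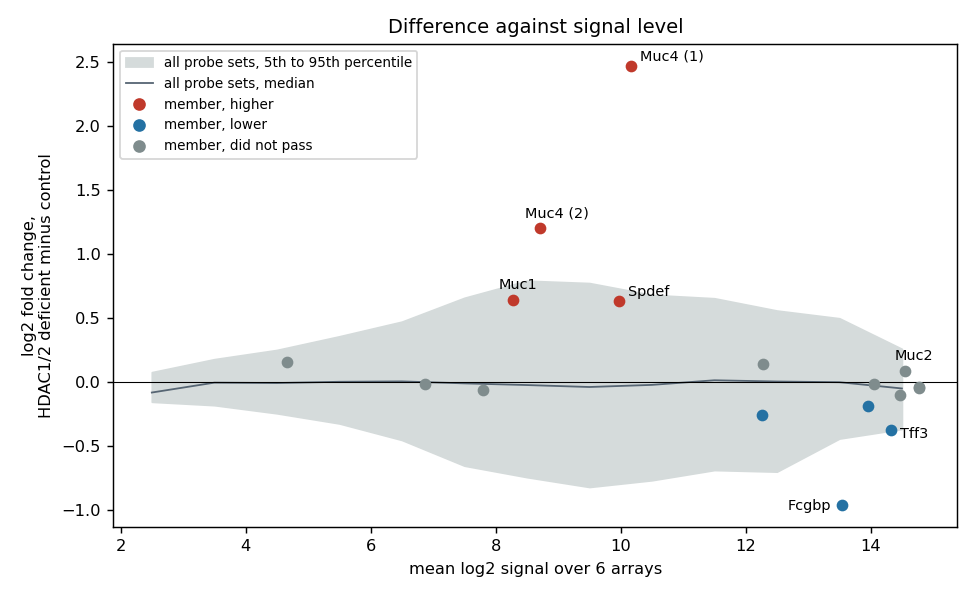
Log2 fold change (HDAC1/2 deficient minus control, vertical axis) against mean log2 signal over the 6 arrays (horizontal axis). The grey band is the 5th to 95th percentile of all 45037 probe sets in steps of 1 log2 unit and the points are the 17 probe sets of the mucus genes, of which 2 Muc4 probe sets lie above the band, Fcgbp lies below it and Tff3 (-0.38) lies at its lower edge.

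Genes beside a member on the chromosome, 3 protein-coding genes to each side in the order of RefSeq GRCm38.p6, were looked up after the members' values had been seen. Muc4 and Muc20 are direct neighbours, and Muc4 rose by 2.47 while Muc20 did not pass (-0.06). On the other side of Muc4, Tnk2, a kinase gene, did not pass (-0.11), and the transferrin receptor gene Tfrc rose by 1.39 (limma adjusted p = 2.99e-07). In the cluster of gel-forming mucins Muc2, Muc5ac and Muc5b lie in a row, and none of the 3 passed, with differences of 0.08, 0.01 and 0.13. The trefoil genes Tff3, Tff2 and Tff1 also lie in a row and went different ways. Tff3 fell by 0.38, whereas Tff2, a trefoil peptide of gastric gland mucus, rose from 7.16 ± 0.20 to 8.35 ± 0.11 (difference 1.19, SE 0.10, limma adjusted p = 7.19e-05) and Tff1, that of gastric surface mucus, from 9.58 ± 0.04 to 10.53 ± 0.02 (difference 0.95, SE 0.04, limma adjusted p = 3.00e-06). Other gastric markers showed no such size of difference. Gkn2 rose by 0.31, and Gkn1, Gkn3, Pgc, Atp4a and Muc5ac had differences between -0.08 and 0.13 and did not pass. Agr3, the paralog of Agr2 beside it, fell from a mean of 6.71 to 4.89 (difference -1.81, limma adjusted p = 6.04e-05), while Agr2 did not pass.

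**Figure D4:**
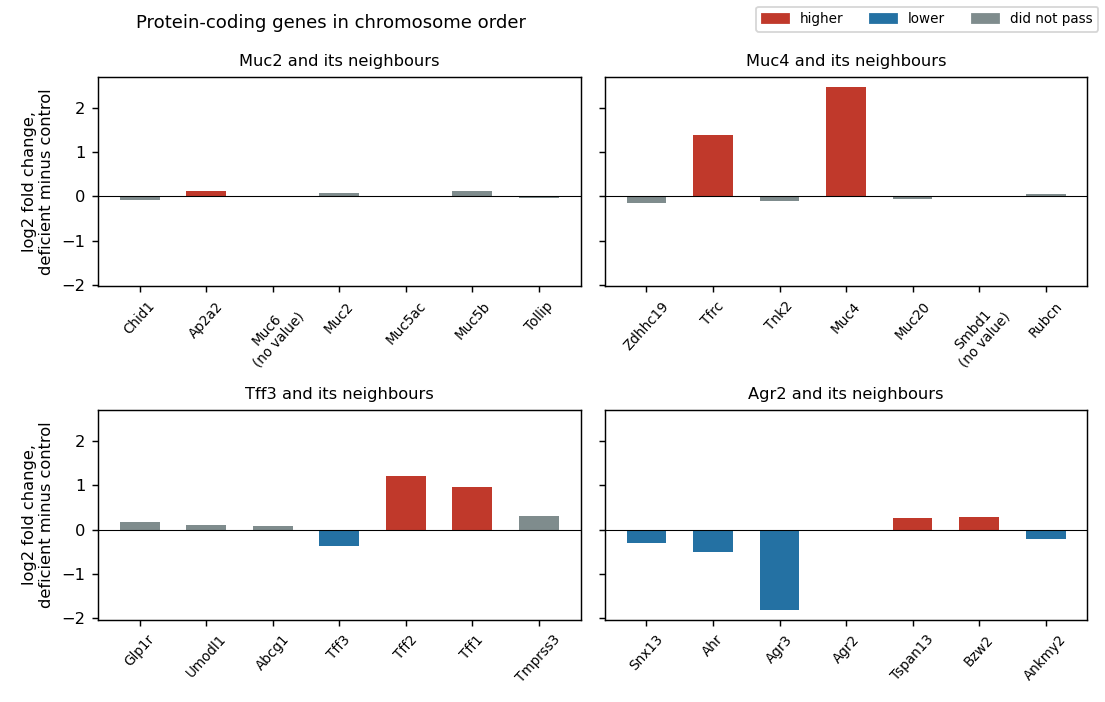
Log2 fold changes (vertical axis, HDAC1/2 deficient minus control, brightest probe set) of the protein-coding genes around Muc2, Muc4, Tff3 and Agr2, in chromosome order and not to distance, coloured by limma's call. Tff3 stands at -0.38 beside Tff2 at 1.19, and Agr2 at -0.02 beside Agr3 at -1.81.

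Other mucins were few on the arrays. Of 10 symbols listed, 5 had a probe set of their own, and of these 1 fell and 4 did not pass. Of all genes 28.4% fell and 21.9% rose, so this count shows nothing particular to these mucins. Muc3, a transmembrane mucin of the intestinal brush border, fell from 14.53 ± 0.02 to 14.18 ± 0.01 (difference -0.35, SE 0.04, limma adjusted p = 2.52e-04), while Muc15 (-0.16), Muc5b (0.13) and Muc16 (0.07) did not pass.

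Other genes listed for goblet cell secretion went both ways. Of 13 measured, 7 fell, 4 rose and 2 did not pass, where 28.4% of all genes fell and 21.9% rose, with a median of -0.18 against -0.02 over all genes. The antimicrobial ribonuclease gene Ang4 went from 14.02 ± 0.04 to 11.16 ± 0.04 (difference -2.86) and the lectin gene Itln1 from 10.72 ± 0.09 to 8.02 ± 0.10 (-2.69). Clca1, a metalloprotease that processes Muc2, fell by 0.38 in its brightest probe set and by 1.68 in the other, and Retnlb, an antiparasitic resistin-like protein of goblet cells, by 0.29. The rises were those of Sct, which encodes the hormone secretin and is no mucus protein (8.60 ± 0.07 to 12.40 ± 0.05, difference 3.81), of Tff2 and Tff1, and of Dmbt1 (0.13), a mucosal scavenger protein. Ang4 was also listed as a Paneth cell marker, and of the 4 such genes measured it alone fell. The other 3, Pla2g2a (2.29), Mmp7 (1.82) and Lyz1 (0.22), rose by their brightest probe sets, beside 21.9% of all genes. Among 12 transcription factors of the secretory and absorptive lineages, 7 fell, 2 rose and 3 did not pass (median -0.18), beside the same 28.4% and 21.9% of all genes. Atoh1, the factor that commits cells to the secretory lineage, fell by 0.48 (SE 0.04, limma adjusted p = 5.62e-05), and so did Foxa2 (-0.62), the progenitor factor Sox9 (-0.57) and the Notch target Hes1 (-0.55). Gfi1, which acts between Atoh1 and Spdef in goblet cells, did not pass (-0.04, limma adjusted p = 0.553). The intestinal factor Cdx2 (0.56) and Foxa3 (0.47) rose, as Spdef did (0.63). Of 6 enteroendocrine genes, of another secretory lineage, 5 fell and 1 did not pass, beside 28.4% lower and 21.9% higher among all genes. Chga was at -1.24. But Sct, counted above among the goblet cell genes and known as a hormone of enteroendocrine cells, rose by 3.81.

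Of 18 genes listed for mucin folding, release and processing, 12 fell, 4 rose and 2 did not pass (median -0.31), against 28.4% lower and 21.9% higher among all genes. Tgm3, a transglutaminase that cross-links mucus, went from 13.36 ± 0.01 to 10.43 ± 0.003 (difference -2.93), the bicarbonate channel gene Best2 fell by 1.61 and the metalloprotease gene Mep1a by 1.04. Tgm3 is also made by squamous epithelium, whose 7 genes fell with it. The log2 of their summed linear signals went from between 11.37 and 11.45 to between 9.42 and 9.51. The part of that tissue in the fall of Tgm3 was not tested. Folding genes of the endoplasmic reticulum went both ways: Hspa5 (0.61) and Pdia4 (0.68) rose and Pdia5 (-0.45) fell. The dimmer probe set of Pdia4 did not pass (-0.04). Also higher were Mep1b (0.61), which encodes the other meprin subunit, and Xbp1 (0.17), a factor of the unfolded protein response. All 7 measured pancreatic acinar genes rose on the same arrays. The part of pancreatic RNA in the rises of Hspa5, Pdia4 and Xbp1 was not tested. Ern2, the goblet cell sensor of unfolded protein, fell by 0.31. Of 26 genes that build mucin O-glycans, 14 fell, 6 rose and 6 did not pass (median -0.14), against the same 28.4% and 21.9%. The sialyltransferase gene St3gal4 fell from 10.46 ± 0.03 to 6.71 ± 0.27, and Chst4 (-1.22), a sulfotransferase gene, and B3gnt7 (-1.03), a gene of chain extension, fell too. St3gal1 (0.95), B4galnt2 (0.88) and Fut2 (0.78), which cap or branch glycans with sialic acid, N-acetylgalactosamine and fucose, rose. In C1galt1, which makes a core structure of O-glycans, the brightest probe set fell by 0.31, and the 3 probe sets of the gene ranged from -0.31 to 0.23.

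**Figure D5:**
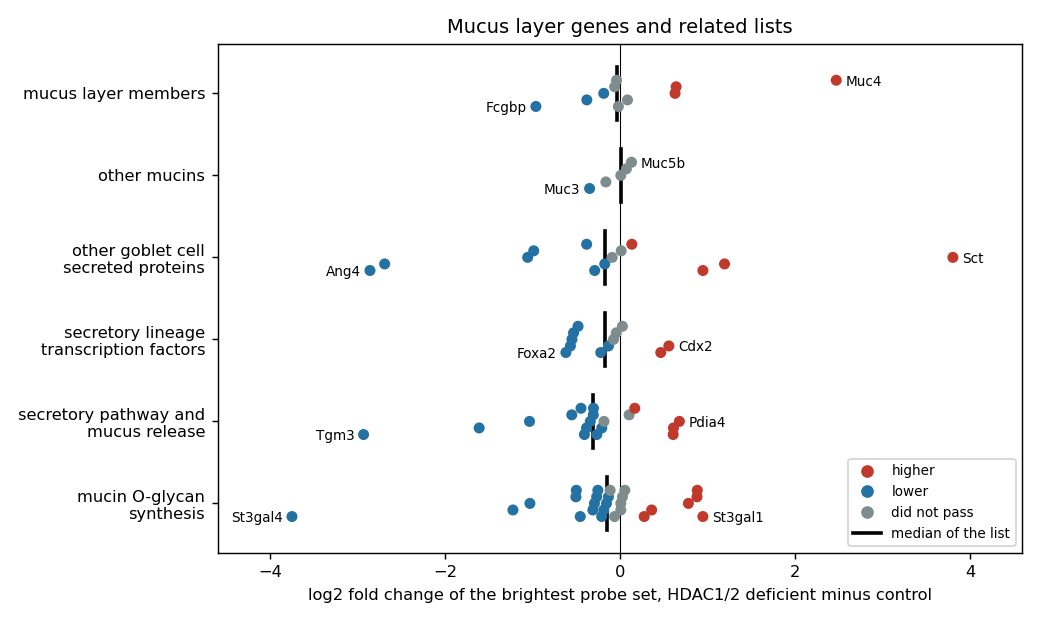
Log2 fold changes (horizontal axis, HDAC1/2 deficient minus control) of the brightest probe set of each gene in the mucus layer set and 5 related lists, coloured by limma's call, with the median of each list as a black bar. The medians are -0.03 for the mucus layer genes, 0.01 for other mucins, -0.18 for other goblet cell secreted proteins, -0.18 for transcription factors, -0.31 for secretory pathway and release, and -0.14 for O-glycan synthesis.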

How the data were processed

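Total colon RNA of 3 control and 3 HDAC1/2 deficient mice was measured on Affymetrix mouse genome arrays. Each deposited value is a log2 signal of 1 probe set, which the authors background-corrected and normalized by RMA in Flexarray. RMA gives all arrays the same distribution of probe signals and compresses differences of dim probe sets. The table held 45101 probe sets, and 64 control probe sets were left out. Groups and replicate numbers came from the sample labels. A linear model of group, with no covariate, was fitted to each of 45037 probe sets by limma (version 3.58.1, lmFit followed by eBayes; R version 4.3.3), and p-values were adjusted across these probe sets after Benjamini and Hochberg. Symbols came from the platform annotation (34945 probe sets with 1 symbol, 932 with several, 9160 with none). Named were all probe sets of the members and, of each other list, up to 4 genes with the largest change by the brightest probe set, besides genes of a stated role, which were chosen after their values were seen. The members and lists were chosen with earlier results of these data known. The number of arrays limits the precision, and the p-values measure the spread between these arrays, which may be technical. The procedure was tested on simulated data. Alternatives were the methods' t-test, other normalizations, a filter on dim probe sets, other variance settings, array weights, the replicate number as a block, other choices of probe set and leaving out each array. Upstream sequences are RefSeq's.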

Additional observations from a re-analysis of the deposited data

How the results depend on the processing

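Of the recounts of members called, 29 stayed within 1.5 times the main count and 3 did not. The probe sets called higher fell from 4 to 2 without those ending in _s_at, _x_at or _a_at, where Muc4 (1.20) and Muc1 passed. This setting dropped the brightest Muc4 probe set and also the only one of Spdef, whose _a_at ending marks transcripts of 1 gene and not sequence shared with other genes. The probe sets called lower rose from 4 to 7 with eBayes trend and robust settings, by the 3 of Zg16, and those more than 2-fold higher fell from 2 to 1 with limma's treat. Muc1, Muc4, Muc13, Fcgbp, Tff3 and Spdef kept direction and call in every setting that gave a value, also without each array. Muc2 (difference 0.08) passed in 5 settings, namely the methods' t-test without adjustment and after it (adjusted p = 0.0201), the filter on dim probe sets (limma adjusted p = 0.0468), trend and robust settings (limma adjusted p = 1.37e-04) and the mean of probe sets (limma adjusted p = 0.0496). Uncalled values changed sign in 5 cases: Agr2 with quantile normalization again (0.0216) and with the mean of its probe sets (0.0603), and 1442960_at of Muc20 without control replicate 2, deficient replicate 1 or deficient replicate 2 (range over all left-out arrays -0.0717 to 0.0688). The cause was not tested. The dimmer Agr2 probe set 1455802_x_at passed without deficient replicate 2 (0.19, limma adjusted p = 0.0385) and with trend and robust settings (0.14, limma adjusted p = 0.0147), and 1428358_at of Zg16 (-0.10) with the unadjusted t-test and the filter (limma adjusted p = 0.0369). Same-numbered mice were not paired by their deviations (correlations 0.10, 0.06 and -0.03), and the replicate block gave 4 higher and 4 lower probe sets and changed no member's call. Recounts of the related lists, added after the data were seen, moved by over 1.5 times only for other mucins, from 0 to 1 higher in 3 settings (the filter, the mean of probe sets and without control replicate 2) and from 1 to 2 lower without control replicate 1. Near the top of the scale and near background, signal limits what can be read.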
